A study of Mus musculus with 6 samples.

Results

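Superoxide and hydrogen peroxide are by-products of respiration and of steroid synthesis, and cells clear them with a chain of dedicated enzymes. The 33 mouse genes described here encode that chain: superoxide dismutases, catalase, glutathione peroxidases, peroxiredoxins, the thioredoxin and glutathione systems that recharge them, glutathione transferases, and the regulators NRF2 and KEAP1. They were listed by name, and 30 of them had a probe set that the array annotation gives to that gene alone, among 18193 such genes in all. The annotation gives every Prdx1 probe set to a predicted gene as well, and no probe set used here carries Prdx5 or Prdx6, so these 3 peroxiredoxins have no value.

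RNA of granulosa cells, which nurse the oocyte inside the follicle, was hybridised to 6 Affymetrix arrays in 3 groups of 2. The knockout (dKO), with the genotype Foxo1 f/-;Foxo3 f/-; Amhr2-cre, was taken at 2 months and at day 25 of age, and wild type at day 25. The strain background, shared by all groups, was mixed from FVB and C57BL/6. The Cre driver is expressed from the Amhr2 locus, which is active in granulosa cells, and only the dKO genotype lists it. The labels do not say whether an array holds 1 animal or a pool, so the spread behind each p-value is that of arrays and may be technical, and wild-type cells of 2 months were not analysed here.

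The brightest Foxo1 probe set read 126 and 343 in dKO at 2 months, 904 and 2291 in dKO at day 25, and 10319 and 7666 in wild type. Foxo3 was not lower in the dKO (2484 and 1872 at 2 months, 2539 and 3279 at day 25, against 1632 and 1342 in wild type), so it is no check of the labels, and whether its probe sets lie in the deleted part is not given in the sources used here. Granulosa markers, 11 of them measured, summed to between 106156 and 126339, much of it from inhibin genes such as Inha (26038 to 27499), and Foxl2 was between 6165 and 13167. Not all were steady: Kitl ran from 240 to 3863 within and across groups, Fst differed by -0.91 between dKO at 2 months and wild type (adjusted p = 0.265), and Amhr2 by -0.43 at day 25 (adjusted p = 0.584). The first dKO array at 2 months stood apart. Its correlation with the other arrays over all probe sets was 0.964 to 0.978, and 20 of 20 leukocyte and 13 of 14 endothelial markers had their highest value there.

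FOXO1 and FOXO3 are forkhead transcription factors that insulin and PI3K signalling hold in the cytoplasm. Sod2, the mitochondrial superoxide dismutase, and Cat, the catalase of peroxisomes, are the textbook FOXO-dependent defence genes, and in vascular endothelium the mitochondrial genes Prdx3, Txn2 and Txnrd2 have been reported as FOXO3-dependent as well. Most inducible genes of glutathione synthesis and thioredoxin recycling are instead known as targets of NRF2, the product of Nfe2l2, which binds antioxidant response elements and is held back by KEAP1.

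The sequences before the transcription start show the Sod2 and Cat pair and 2 NRF2-regulated genes, Gclm and Txnrd1, whose values in the dKO are described below. Each is the 250 bases before a RefSeq start in GRCm38.p6, written 5′ to 3′ on the gene's strand. Capitals mark the core of the antioxidant response element, searched as TGACNNNGC on both strands, and the forkhead motifs GTAAACA and ATAAACA were searched in the same way. The Sod2 window is chr17:13007589-13007838 (+), the Cat window chr2:103485154-103485403 (-), the Gclm window chr3:122245307-122245556 (+), and the Txnrd1 window chr10:82858956-82859205 (+), the one of the 3 Txnrd1 windows with a match.
Sod2: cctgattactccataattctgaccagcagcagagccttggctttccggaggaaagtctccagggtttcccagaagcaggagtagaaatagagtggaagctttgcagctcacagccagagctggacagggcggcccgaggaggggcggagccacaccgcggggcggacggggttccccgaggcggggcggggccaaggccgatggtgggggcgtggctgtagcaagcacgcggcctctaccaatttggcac
Cat: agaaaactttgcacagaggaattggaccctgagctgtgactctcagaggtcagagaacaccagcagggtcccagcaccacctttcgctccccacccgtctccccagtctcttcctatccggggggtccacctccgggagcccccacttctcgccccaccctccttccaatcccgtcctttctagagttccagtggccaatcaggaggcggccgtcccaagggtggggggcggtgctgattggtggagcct
Gclm: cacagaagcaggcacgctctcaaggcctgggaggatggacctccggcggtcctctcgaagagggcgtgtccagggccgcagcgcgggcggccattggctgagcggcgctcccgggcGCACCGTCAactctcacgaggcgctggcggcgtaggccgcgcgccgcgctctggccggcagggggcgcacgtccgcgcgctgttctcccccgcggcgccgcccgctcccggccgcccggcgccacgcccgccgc
Txnrd1: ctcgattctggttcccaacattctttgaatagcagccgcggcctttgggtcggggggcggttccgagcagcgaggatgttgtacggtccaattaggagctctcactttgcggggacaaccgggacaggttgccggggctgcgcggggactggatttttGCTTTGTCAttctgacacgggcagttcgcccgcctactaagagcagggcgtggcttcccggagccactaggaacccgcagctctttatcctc

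The match began 134 bases before the start in Gclm and 92 bases before it in Txnrd1, on the opposite strand in both. RefSeq starts were matched for 27 of the 33 listed genes, with 34 windows, and 6 windows of 6 genes held the antioxidant element (17.6%), against 10.2% of all 32851 windows. GTAAACA was in 0 of the 34 windows (3.17% of all), and ATAAACA was in the Gss window alone (2.94%, against 4.16% of all). The missing letters say only that they are not in these windows.

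The dKO genotype is compared with wild type at a matched age in the day 25 arrays, in which Foxo1 signal was lower and Foxo3 signal was not. In these arrays 26 of the 30 antioxidant genes (86.7%) had a log2 difference of less than 0.5 in size, near the 87.0% of all genes. With 2 arrays per group, intervals could reach past 0.5, as for Cat (-0.82 to 0.31). The median of the 30 was -0.063, against 0.029 for all genes. None passed an adjusted p of 0.05 in limma, and neither did any of 45037 probe sets (0%). At an unadjusted p under 0.05, 1 listed gene was lower (3.43% of all genes) and 0 were higher (4.88% of all genes). Both dKO arrays lay below both wild-type arrays for 9 of the 30 (19.5% of all genes) and above them for 5 (26.4%). The count at an unadjusted p was 0 lower without wild-type replicate 1, dKO day 25 replicate 1 or dKO day 25 replicate 2, and 3 lower without either 2-month array. It was 1 higher without wild-type replicate 2, dKO day 25 replicate 1 or either 2-month array.

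**Figure D1:**
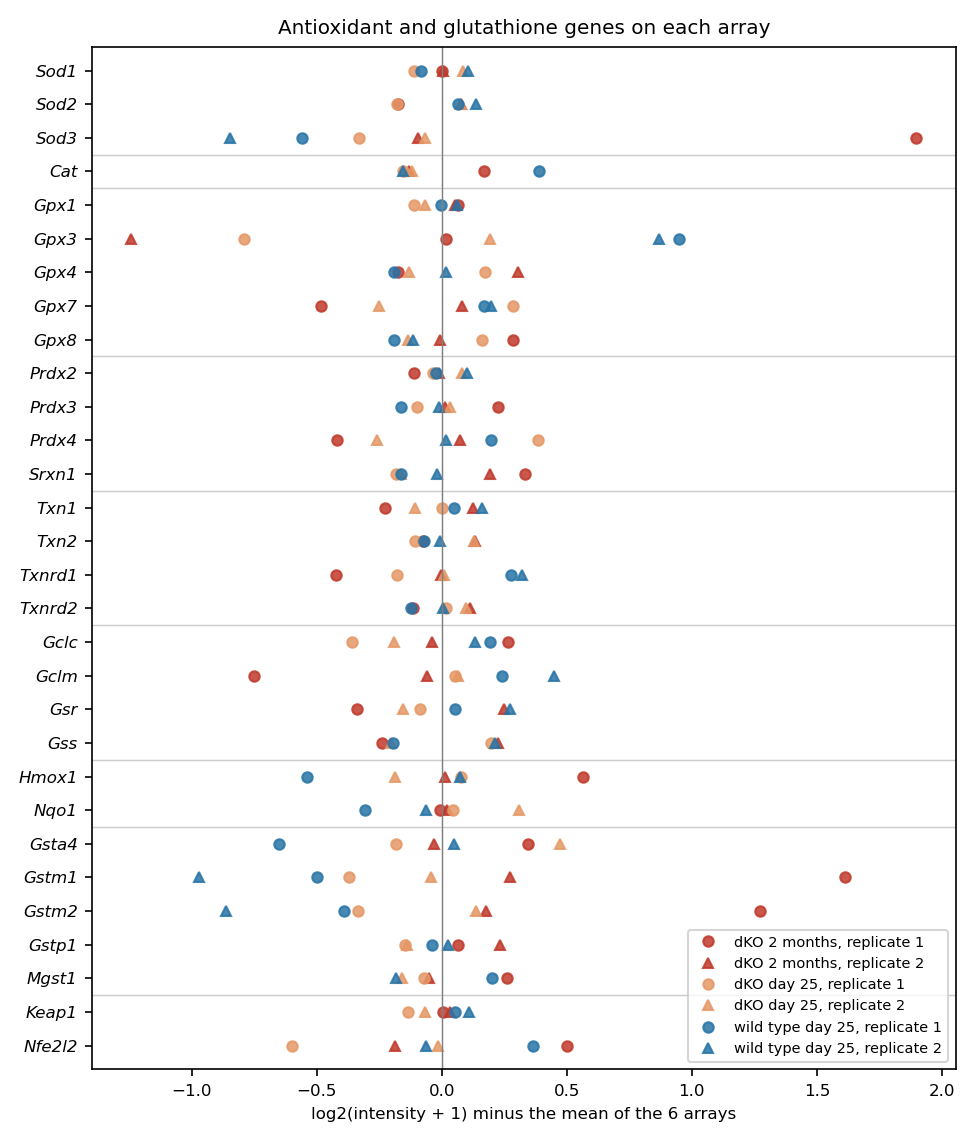
Each row is 1 gene and each point 1 array, placed by its log2(intensity + 1) minus the gene's mean over the 6 arrays, with genes grouped by role. Most genes keep all 6 arrays within 0.5 of their mean, while Sod3, Gstm1 and Gstm2 have 1 high array, dKO 2-month replicate 1, and Gpx3 has both wild-type arrays highest.

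Sod2 and Cat came first in the comparison because FOXO factors are known to drive them. Sod2 intensity was 1778 and 2119 in dKO at 2 months, 1772 and 2119 in dKO at day 25, and 2103 and 2206 in wild type. One dKO array of each age lay below the wild-type arrays and the other between them, so the groups overlap. The log2 difference of dKO from wild type at day 25 was -0.15 ± 0.15 (SE), with a 95% interval of -0.53 to 0.23 and adjusted p = 0.812 in limma. The next probe set by brightness gave 1723 and 2098, 1726 and 2061, and 2073 and 2106 on the same arrays. Another, dimmer one was 333 and 368 in dKO at 2 months, 273 and 315 in dKO at day 25, and 362 and 374 in wild type. The groups of day 25 did not overlap on either probe set. On the dimmer one the difference was -0.33 ± 0.12 (SE), interval -0.64 to -0.017. Its unadjusted p was under 0.05, with adjusted p = 0.599 in limma. The dimmest of the 4, below the array median on every array, gave -0.0044. The mean was thus lower in dKO at day 25 on the 3 brighter probe sets, by less than 0.5 on the log2 scale and without passing an adjusted p of 0.05.

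Cat intensity was 1410 and 1145 in dKO at 2 months, 1125 and 1154 in dKO at day 25, and 1641 and 1127 in wild type. A single wild-type array, replicate 1, was high, and the other wild-type array lay between the dKO arrays of day 25. The log2 difference at day 25 was -0.26 ± 0.22 (SE), interval -0.82 to 0.31, adjusted p = 0.784, and it was 0.016 without wild-type replicate 1 and -0.53 without wild-type replicate 2, where its unadjusted p was under 0.05 (adjusted p = 0.877). On their brightest probe sets the mitochondrial genes Prdx3, Txn2 and Txnrd2 had log2 differences of 0.053, 0.050 and 0.12. Set against the other 28 listed genes, whose differences ran from -1.21 to 0.53 with a median of -0.034, Sod2 and Cat lay inside the range. Their mean minus that median was -0.17, with a replicate SD of 0.142, and it was 0.036 without wild-type replicate 1 and -0.34 without wild-type replicate 2.

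The widest difference from wild type at day 25 was in Gpx3, the glutathione peroxidase that cells secrete. Its intensity was 1294 and 540 in dKO at 2 months, 739 and 1459 in dKO at day 25, and 2464 and 2335 in wild type. All 4 dKO arrays were below both wild-type arrays, although the arrays within each dKO group lay far apart. At day 25 the log2 difference was -1.21 ± 0.52 (SE), a 2.31-fold difference, with adjusted p = 0.640 in limma and values of -1.70 without dKO replicate 2 and -0.72 without dKO replicate 1. Gpx3 has a single probe set on this array.

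The other glutathione peroxidases differed less from wild type at day 25. Gpx1, the abundant cytosolic enzyme, was 5572 and 5750 in dKO at day 25, against 5998 and 6281 in wild type, a log2 difference of -0.12. Gpx4, which reduces lipid peroxides in membranes, was 8513 and 6899 against 6614 and 7634. Gpx7 and Gpx8, which act in the endoplasmic reticulum, had log2 differences of -0.17 and 0.17 at day 25, and none of these 4 passed (adjusted p from 0.759 to 0.916).

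Genes of glutathione synthesis and recycling had lower means in dKO at day 25 in 4 of 4 cases, as did 7974 of all 18193 genes, and the Gss means were nearly equal. Gclc, the catalytic subunit of glutamate-cysteine ligase and the rate-limiting step, was 1154 and 1298 in dKO at day 25, against 1692 and 1623 in wild type. By brightest probe sets it was the 1 gene under an unadjusted p of 0.05. Its log2 difference was -0.44 ± 0.14 (SE), interval -0.81 to -0.066 and adjusted p = 0.568, on a probe set of a kind marked for cross-hybridization. Its second probe set was 532 and 536 against 1030 and 854, so both ran the same way. The difference on that second one was -0.81 (interval -1.39 to -0.24, adjusted p = 0.533 in limma). Gclm, the modifier subunit of the same ligase, was 776 and 783 against 883 and 1022, and Gsr, which regenerates reduced glutathione, was 627 and 599 against 692 and 806. Both had non-overlapping groups, with intervals that include 0 (-0.93 to 0.36 and -0.86 to 0.29). On their second probe sets the groups did not overlap either. Gclm was 245 and 238 against 290 and 333 there (-0.36, interval -0.75 to 0.025). Gsr was 210 and 224 against 297 and 306 (-0.47, interval -0.82 to -0.13), under an unadjusted p of 0.05 but with adjusted p = 0.549 in limma. Gss, glutathione synthetase, was 221 and 167 against 168 and 223, a log2 difference of -0.011, with 0.030 on its second probe set.

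In the thioredoxin system the cytosolic reductase differed most. Txnrd1 was 1103 and 1475 in dKO at 2 months, 1306 and 1488 in dKO at day 25, and 1795 and 1848 in wild type, with all 4 dKO arrays below wild type on this probe set. The log2 difference at day 25 was -0.39 ± 0.17 (SE), interval -0.83 to 0.060, adjusted p = 0.645. A second Txnrd1 probe set, far dimmer, was 37 and 39 in dKO at 2 months, 33 and 32 in dKO at day 25, and 34 and 38 in wild type, so it was not lower at 2 months. With all 3 probe sets averaged, the differences from wild type were -0.23 at day 25 and -0.16 at 2 months. Txn1, cytosolic thioredoxin, was 7250 and 6732 in dKO at day 25 against 7491 and 8093. Mitochondrial Txn2 was 993 and 1170 against 1018 and 1065, and Txnrd2 was 595 and 628 against 539 and 590. The other probe sets at day 25 gave -0.055, -0.084 and -0.097 for Txnrd2, all dimmer, and -0.052 and 0.072 for Txn2. The lower values were thus in the cytosolic pair on the brightest probe sets only, with no test of the difference between the pairs.

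The measured peroxiredoxins, which reduce peroxides with thioredoxin, had log2 differences at day 25 of -0.017 (Prdx2), 0.053 (Prdx3) and -0.044 (Prdx4). Prdx2, cytosolic, was 7074 and 7668 in dKO against 7139 and 7781 in wild type, and mitochondrial Prdx3 was 1642 and 1801 against 1573 and 1746. Prdx4, of the endoplasmic reticulum, was 10347 and 6621 against 9085 and 8020, a wide spread within the dKO with an interval of -0.77 to 0.69. Srxn1, sulfiredoxin, which repairs overoxidised peroxiredoxins, was 83 and 84 against 84 and 93. Sod1, the cytosolic dismutase, was 5816 and 6653 against 5927 and 6746, with a log2 difference of -0.024 and an interval of -0.34 to 0.29.

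Nfe2l2 itself was 2330 and 1444 in dKO at 2 months, 1085 and 1628 in dKO at day 25, and 2121 and 1575 in wild type, so the groups overlap at both ages (-0.46 ± 0.33 at day 25, adjusted p = 0.745). Keap1 was 739 and 774 in dKO at day 25 and 841 and 874 in wild type, a small non-overlapping difference of -0.18 (adjusted p = 0.665). Nqo1, a quinone reductase and standard NRF2 target, had the smallest p among the genes of higher mean, at 54 and 65 in dKO at day 25 against 42 and 50 in wild type (adjusted p = 0.621), but these intensities are under the median probe set (73 or 74 on every array). Hmox1, heme oxygenase, was 386 and 263 in dKO at 2 months, 275 and 229 in dKO at day 25, and 179 and 274 in wild type. Of 11 measured NRF2 targets among the 30, 7 had lower and 4 higher means at day 25, with a median of -0.14.

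**Figure D2:**
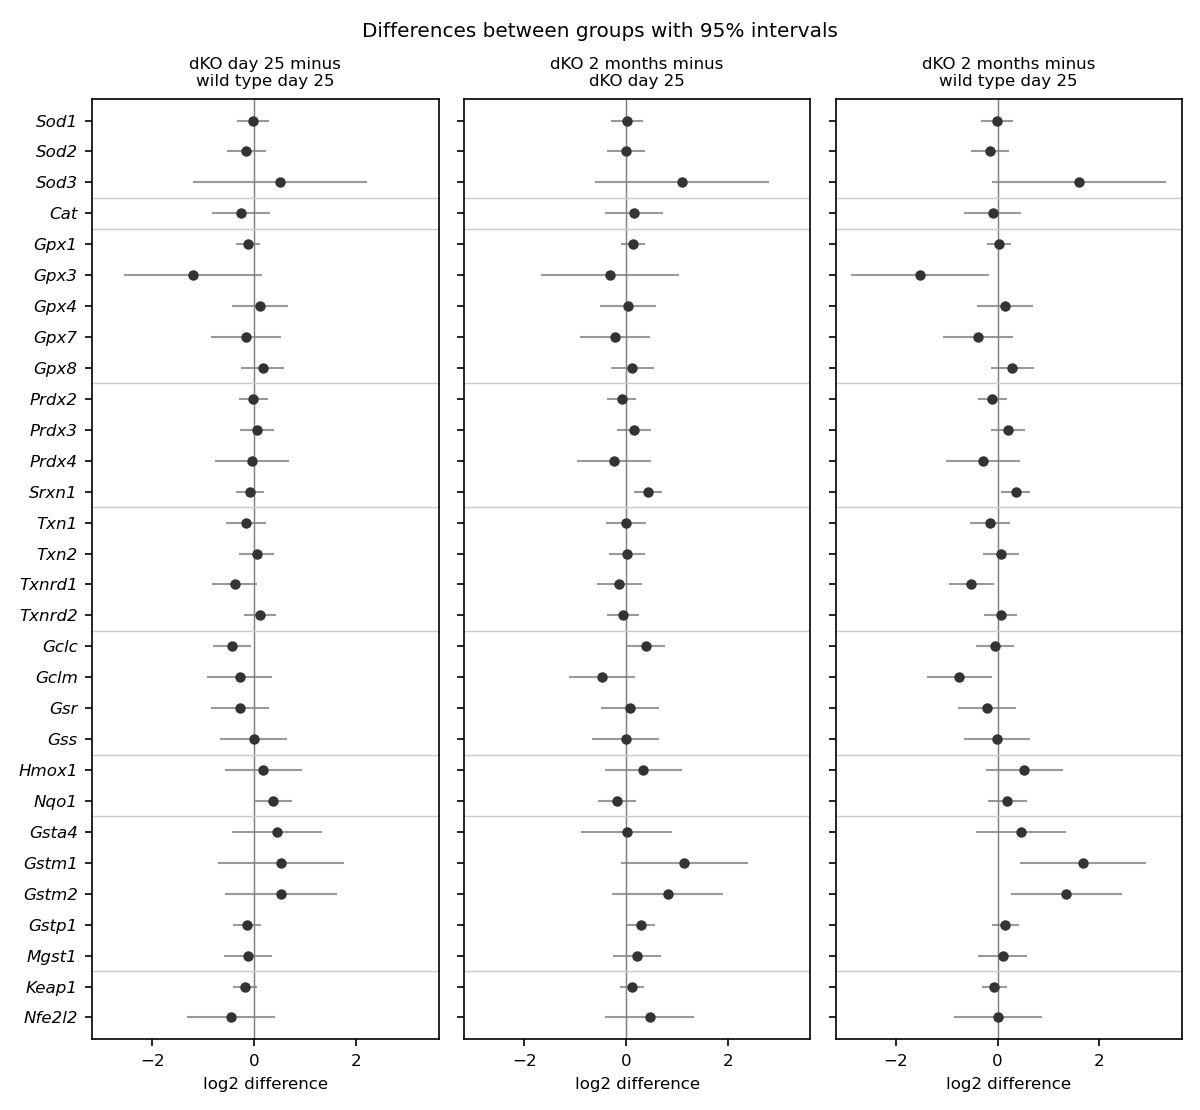
Log2 differences between groups (points) with 95% intervals from limma (bars) for each of the 30 genes in the 3 comparisons. Bars miss 0 for Gclc at day 25 (-0.81 to -0.066), for Gclc, Srxn1 and Gstp1 between the dKO ages, and for Gpx3, Txnrd1, Gclm, Srxn1, Gstm1 and Gstm2 in dKO at 2 months against wild type, and none passed the adjusted threshold.

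Glutathione transferases attach glutathione to lipid peroxidation products and other reactive compounds, and Gstm1 and Gstm2 of the mu class had the largest positive differences of the 30 genes at day 25. Gstm1 was 9405 and 3709 in dKO at 2 months, 2375 and 2983 in dKO at day 25, and 2172 and 1566 in wild type. Gstm2 was 8181 and 3829, 2689 and 3726, and 2588 and 1864 on the same arrays. The 3 groups are thus in the same order for both genes without overlap, with dKO 2-month replicate 1 far above its partner. At day 25 the log2 differences from wild type were 0.53 ± 0.48 and 0.53 ± 0.42 (SE), adjusted p = 0.797 and 0.768. These genes are close paralogs, the brightest Gstm1 probe set is of a kind marked for cross-hybridization, and signal cannot be assigned firmly to either, though all 4 Gstm1 probe sets gave the same order. Gsta4 was 2304 and 3630 in dKO at day 25 against 1668 and 2707, Gstp1 was 5731 and 5768 against 6192 and 6473, and Mgst1, the microsomal enzyme, was 11320 and 10630 against 13637 and 10456.

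Sod3, the dismutase of the extracellular matrix, also had its highest value on dKO 2-month replicate 1. It was 608 and 152 in dKO at 2 months, 129 and 155 in dKO at day 25, and 110 and 90 in wild type. The log2 difference of dKO at 2 months from wild type was 1.60 ± 0.66 (SE) with all arrays and 0.61 without dKO 2-month replicate 1, and its second probe set read 64 on that array and 32 to 36 on the other 5. On the same array leukocyte markers were highest, with summed intensity 25867 and 8339 in dKO at 2 months, 11300 and 6790 in dKO at day 25, and 2578 and 5264 in wild type (20 of 20 markers with higher means at 2 months than in wild type). Endothelial markers summed to 4881 and 2625, 1705 and 2437, and 1322 and 1628 (14 of 14 higher), and stromal and smooth muscle markers to 51731 and 28777, 31518 and 38714, and 26049 and 18212 (13 of 16 higher). The leukocyte integrin Itgam stayed at 12 to 16, near the array minimum of 6 or 7. The part of these cells in the transferase and Sod3 values was not tested, and in bulk samples fewer cells of a type and less RNA per cell cannot be told apart.

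**Figure D3:**
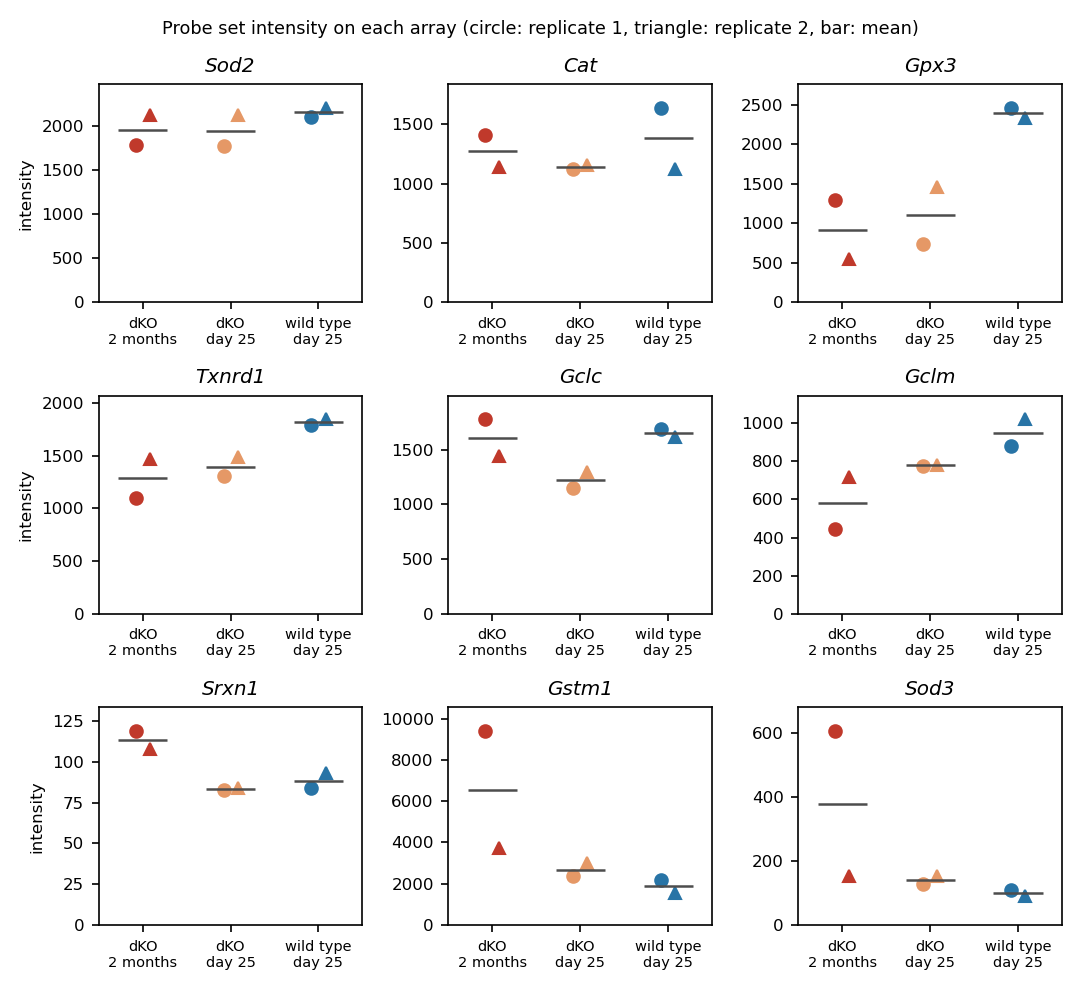
Intensity (linear, from 0) of 9 genes in dKO at 2 months, dKO at day 25 and wild type at day 25, with 1 point per array and a bar at the mean of 2. Sod2 and Cat overlap between groups, Gpx3 and Txnrd1 are highest in wild type, and Gstm1 and Sod3 have their highest value on dKO 2-month replicate 1 (9405 and 608). The other 2-month array is above all arrays of day 25 for Gstm1 (3709) and among those of the dKO for Sod3 (152).

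Within the knockout, the cells of 2 months were set against those of day 25. Of the 30 genes 21 had higher and 9 lower means at 2 months, with a median log2 difference of 0.059 against 0.021 for all genes. The count under 0.5 in size was 27, against 85.5% of all genes. None passed in limma, nor did any probe set (0%), and at an unadjusted p under 0.05 there were 3 higher (3.73% of all genes) and 0 lower (2.90%). The groups did not overlap for 8 higher (19.7% of all genes) and 2 lower genes (17.0%).

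Srxn1 had the smallest p, at 119 and 108 in dKO at 2 months against 83 and 84 in dKO at day 25, a log2 difference of 0.44 ± 0.11 (SE), adjusted p = 0.712. Its value was 0.37 without dKO 2-month replicate 1 and 0.085 with cross-hybridizing probe sets left out, since its brightest probe set is one of these. Gstp1, at 6650 and 7464 against 5731 and 5768, was higher on both 2-month arrays (0.29 ± 0.10, adjusted p = 0.712). Gclc was 1781 and 1443 at 2 months, against 1154 and 1298 at day 25, and wild type was 1692 and 1623. The second Gclc probe set was 860 and 578 at 2 months and 532 and 536 at day 25, against 1030 and 854 in wild type. The probe sets had the same sign between the dKO ages but gave log2 differences from wild type at 2 months of -0.048 and -0.41. Its partner Gclm did not follow: it was 444 and 717 at 2 months, against 776 and 783 at day 25, a log2 difference of -0.47 ± 0.25 (SE) that was -0.12 without dKO 2-month replicate 1. The catalytic and modifier subunits thus had opposite signs between the dKO ages, a difference that was not tested.

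Sod2 was 1778 and 2119 against 1772 and 2119, with a log2 difference of 0.0024 and an interval of -0.38 to 0.38, while its dimmer probe set was 333 and 368 against 273 and 315, a difference of 0.25 without overlap. Cat differed by 0.16 (interval -0.41 to 0.72), or 0.0071 without dKO 2-month replicate 1. Gpx1 was higher on both 2-month arrays, at 6294 and 6238 against 5572 and 5750, and Mgst1 was 14246 and 11464 against 11320 and 10630. Gsr (527 and 792 against 627 and 599) and Txn1 (6183 and 7900 against 7250 and 6732) had 1 array of 2 months below and 1 above both arrays of day 25. Their second, dimmer probe sets were higher on both 2-month arrays, at 228 and 281 against 210 and 224 (Gsr) and 66 and 66 against 57 and 59 (Txn1). Markers of luteal and of theca cells also had higher sums on the 2-month arrays. The 8 measured luteal markers summed to 40251 and 31003 in dKO at 2 months, against 18107 and 26589 in dKO at day 25. Of these, 5 of 8 were higher at an unadjusted p under 0.05 (3.73% of all genes), with a median log2 difference of 0.92. The 8 theca and interstitial markers, which share 3 genes with the luteal list, summed to 48156 and 39117 against 16965 and 30812. At that threshold 3 of 8 were higher (3.73% of all genes), while 5 of 8 had higher and 3 lower means. Star, which carries cholesterol into mitochondria for steroid synthesis, was 449 and 770 against 44 and 109. Those 5 luteal markers, like Gstp1, Gpx1 and Srxn1, were higher on both 2-month arrays, and the part of such cells in the values was not tested. Of the 30 genes, 8 had their lowest and 11 their highest value on dKO 2-month replicate 1, the array that stood apart over all probe sets. This was not counted over all genes, so it marks no trait of the 30. The number under an unadjusted p was 1 higher without either wild-type array or either dKO day 25 array, and 5 higher and 1 lower without dKO 2-month replicate 2.

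The comparison of dKO at 2 months with wild type at day 25 joins genotype and age, which cannot be told apart here, and it shares arrays with both comparisons above. The median log2 difference was 0.017 (0.039 for all genes), and 23 of 30 were under 0.5 in size, against 82.1% of all genes. At an unadjusted p under 0.05, 3 genes were higher (9.53% of all genes) and 3 lower (5.36%), and none passed, nor did any probe set (0%). The 3 higher were Gstm1 (1.68 ± 0.48, SE), Gstm2 (1.35 ± 0.42) and Srxn1 (0.36 ± 0.11), with adjusted p from 0.315 to 0.337 in limma. Srxn1 was 0.12 with cross-hybridizing probe sets left out. The 3 lower were Gpx3 (-1.52 ± 0.52), Gclm (-0.75 ± 0.25) and Txnrd1 (-0.51 ± 0.17), with adjusted p from 0.349 to 0.354, and Txnrd1 was -0.16 with its probe sets averaged. Groups did not overlap for 8 higher (26.5% of all genes) and 5 lower genes (17.3%). Without dKO 2-month replicate 1 the 6 differences were 1.01, 0.80, 0.29, -2.15, -0.41 and -0.30, in the order named, and Gpx3 was -0.89 without dKO 2-month replicate 2. The counts were 0 in both directions without wild-type replicate 1, 1 higher and 0 lower without wild-type replicate 2, and 1 lower without either dKO day 25 array. In the roles of the 3 lower genes, glutathione peroxidases had 3 higher and 2 lower means, and thioredoxins and their reductases 2 and 2. Glutathione synthesis and recycling had 0 higher and 4 lower means. Sod2 was -0.15 and Cat -0.10, and no test set them against the 3 lower genes.

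**Figure D4:**
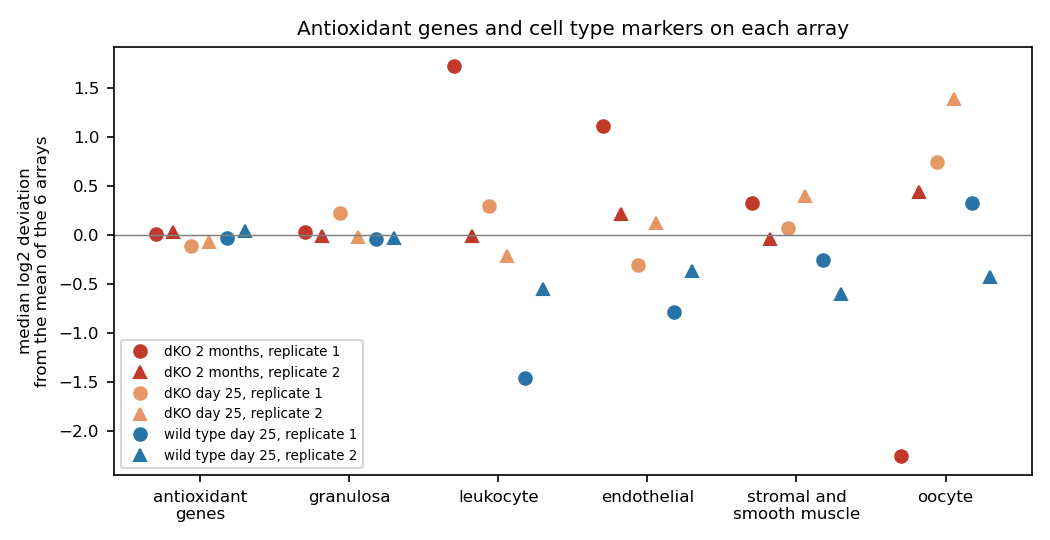
Median log2 deviation of each list from its mean over the 6 arrays (vertical axis), for the 30 antioxidant genes and 5 sets of cell type markers, with 1 point per array. The antioxidant median runs from -0.11 to 0.04, while leukocyte markers reach 1.72 and oocyte markers -2.25 on dKO 2-month replicate 1.

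Erythrocytes, which are rich in catalase and peroxiredoxin, were looked at beside Cat and Prdx2. The 7 measured markers summed to 910 and 697 in dKO at 2 months, 590 and 591 in dKO at day 25, and 322 and 558 in wild type, and 4 of 7 had a higher mean at 2 months than in wild type. Alas2, the heme synthesis enzyme of red cells, supplied most of that difference, at 598 and 398, 364 and 289, and 129 and 127 (log2 differences from wild type of 1.33 at day 25 and 1.92 at 2 months, adjusted p = 0.474 and 0.139). Hba-a1, a globin gene, was at 16 to 22 on its probe set. Oocyte markers, which summed to 7048 and 40516 in dKO at 2 months, 51365 and 77174 in dKO at day 25, and 36662 and 21949 in wild type, differed far more between arrays than the antioxidant genes did. The share of either cell type in the values above was not tested.

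Further genes of the pathway were read from the same fit. Of 41 other glutathione and thioredoxin genes, 5 lay higher (4.88% of all genes) and 5 lower (3.43%) in dKO at day 25 against wild type at an unadjusted p under 0.05, and none passed in limma. Mgst2, a membrane-bound transferase, was 154 and 98 in dKO at 2 months, 113 and 161 in dKO at day 25, and 563 and 293 in wild type (-1.58 at day 25, adjusted p = 0.515). Glrx2, mitochondrial glutaredoxin, was 1093 and 1096, 1101 and 1081, and 1301 and 1507, and Glo1, which clears methylglyoxal with glutathione, was 1785 and 1778, 1500 and 1507, and 1824 and 2059. These 3 genes were named for their small p at day 25, and all dKO arrays lay below wild type for them. Over the 41 genes at day 25, 24 had higher and 17 lower means than in wild type. Groups did not overlap for 17 higher (26.4% of all genes) and 9 lower genes (19.5%). Gsta2, an alpha-class transferase, was higher in the dKO, at 594 and 1100, 225 and 240, and 112 and 173. Its log2 difference in limma was 1.79 between the dKO ages (adjusted p = 0.712) and 2.53 from wild type at 2 months (adjusted p = 0.172). Between the dKO ages the same threshold left 5 of the 41 higher (3.73% of all genes) and 1 lower (2.90%), and setting dKO at 2 months against wild type left 10 higher (9.53%) and 5 lower (5.36%).

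Of 25 NRF2 partners and other NRF2 targets, 2 lay higher (4.88% of all genes) and 1 lower (3.43%) in dKO at day 25 against wild type at that threshold, and none passed in limma. The 2 higher were Abcc4 (1047 and 1306 against 648 and 645, 0.85) and Akr1b8 (419 and 509 against 314 and 166, 1.01). Their adjusted p was 0.549 and 0.564, and the lower gene was Bach2. Between the dKO ages 2 were higher (3.73%) and 2 lower (2.90%), and with dKO at 2 months set against wild type 3 were higher (9.53%) and 3 lower (5.36%). Ephx1, microsomal epoxide hydrolase, was 4225 and 3678 in dKO at 2 months, 888 and 1805 in dKO at day 25, and 814 and 1123 in wild type, a log2 difference of 1.64 between the dKO ages (adjusted p = 0.712). Me1, a source of NADPH, was 4222 and 2688, 2191 and 1975, and 1137 and 1788, and Pgd, another NADPH source, was 3742 and 4594, 3762 and 4404, and 5297 and 5215. These NADPH enzymes thus had opposite signs in the dKO. Bach2, a repressor that competes at antioxidant response elements, was 43 and 50, 77 and 69, and 107 and 98, lowest in dKO at 2 months and highest in wild type without overlap (adjusted p = 0.518 at day 25), at intensities near the array median. Of 9 genes for oxidant-producing enzymes, 0 were past an unadjusted p of 0.05 in dKO at day 25 against wild type (4.88% of all genes higher, 3.43% lower), 1 was higher between the dKO ages (3.73%), and 3 were higher in dKO at 2 months against wild type (9.53%), where their median was 0.42. None passed in limma. Cybb, the phagocyte NADPH oxidase subunit and itself a leukocyte gene, was 282 and 113, 128 and 89, and 38 and 55, highest on the array where leukocyte markers were highest.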

How the data were processed

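Whole-number linear intensity was deposited for each probe set. Per the submitters' processing notes the tools were affy and RMA, with versions and genome build not given in the sources used here. RMA makes array distributions alike, which hides a shift common to most genes. Values were taken as log2(value + 1), which understates folds of dim genes. Of 45101 probe sets, 64 controls were left out and 45037 fitted, of which 34945 had 1 gene symbol, 932 several and 9160 none. Each of 18193 genes was represented by its brightest probe set on average. R 4.3.3 and limma 3.58.1 fitted a mean per group over all 6 arrays (3 residual degrees of freedom) with empirical Bayes moderation. Tests were two-sided, with Benjamini-Hochberg adjustment over 45037 probe sets and a threshold of 0.05, and intervals are 95%. An exact permutation test of 2 arrays against 2 cannot go below 0.333. The number of arrays limits the precision, and the fit was tested on simulated data. All members could be named, and from each further list up to 4 genes of smallest p per comparison. The members and lists were chosen with earlier results of these data known. Genes were placed in roles and lists from general knowledge, and promoter windows come from RefSeq.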

Additional observations from a re-analysis of the deposited data

How the results depend on the processing

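In limma no probe set and none of the 30 genes passed in any comparison under the alternatives named next. They were another pseudocount (16), array centring, repeated quantile normalization, dim probe sets left out, and moderation by trend and robust prior. Others were only 4 arrays fitted, averaged probe sets, cross-hybridizing probe sets left out and the replicate block. A stricter threshold could give no other result, since 0 passed at 0.05. Each array was also left out in turn. At an unadjusted p under 0.05 the day 25 count of lower genes was 2 with a pseudocount of 16 and with the trend, and 3 in the fit of 4 arrays, where 1 was higher. The higher count between the dKO ages was 1 with dim or cross-hybridizing probe sets left out, with 4 arrays and with the mean of probe sets, where the median was 0.12. The lower count of dKO at 2 months against wild type was 1 with 4 arrays. The causes were not tested.

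With each array left out, day 25 medians ran from -0.12 to -0.046, with 0 to 3 genes lower and 0 to 1 higher. Between the dKO ages medians ran from 0.059 to 0.145, with 1 to 5 higher and 0 to 1 lower. For dKO at 2 months against wild type they ran from 0.014 to 0.075, with 0 to 4 higher and 0 to 4 lower. Sod2 and Cat minus the other genes ran from -0.34 to 0.036 at day 25 and -0.34 to -0.022 at 2 months against wild type. Cat ran from -0.53 to 0.016 and from -0.37 to 0.17 in the same comparisons, and Sod2 from -0.13 to 0.13 between the dKO ages.

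The replicate numbers share no stated origin. Differences between replicates correlated at -0.21 to 0.06 between groups, and the replicate block gave 1 higher and 0 lower listed genes at day 25 and 1 higher between the dKO ages. With wild-type numbers exchanged, an alternative chosen after seeing the data, 0 probe sets passed in each comparison. Other probe sets of 20 listed genes, some with several, had the sign of the brightest in 25 of 35 cases at day 25. They had it in 29 within the dKO and in 28 in the joint comparison of genotype and age. Nqo1 and other dim genes have little signal over background.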
